A study of Arabidopsis thaliana with 2 samples.

Results

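IAA18, IAA20, WES1 and GH3.3 are 4 auxin genes of Arabidopsis thaliana. They were chosen by name as the Aux/IAA repressor and GH3 conjugating genes to be contrasted within each family. Earlier results of these data were known at that choice. All of their single-gene probe sets were taken, 6 in all out of 3794 probe sets that the platform annotation assigned to 1 gene, and the 4 genes are part of 3602 genes so named. The RNA came from whole seedlings of Col-0 at growth stage 1.0, when the cotyledons have opened. One sample was sks (snakeskin), an insertion mutant in the Col-0 background whose disrupted gene the labels do not name, and the other was unmodified Col-0. Both were raised at 22 °C with light for 24 hours a day, on 1% agar with Murashige-Skoog medium and 1% sucrose. Each genotype had 1 Affymetrix array. No difference below therefore has an error, a test or a replicate check, and each one compares these 2 RNA samples. Whole seedlings mix many tissues, so fewer cells of a type and less RNA per cell cannot be told apart. The number of plants per sample is not given in the sources used here.

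Auxin acts by removing repressors. Aux/IAA proteins bind auxin response factors and keep their target genes silent, and auxin joins a repressor to a TIR1/AFB receptor so that it is destroyed. The auxin-binding stretch of the repressor, called domain II, sets how fast this happens. IAA18 carries domain II, and mutations that stabilise it alter embryo patterning and lateral root formation. IAA20 belongs to the few family members that lack domain II and is a long-lived protein. GH3 enzymes work on the other side of the pathway by joining free auxin to amino acids. WES1, also called GH3.5, accepts both auxin and salicylic acid, and GH3.3 conjugates auxin. Transcription of several genes in both families is itself raised by auxin.

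The repressor gene IAA18 was lower in the mutant, IAA20 was close to equal on its brightest probe set, WES1 was lower by little more than 2-fold, and GH3.3 was higher. The members of each family thus differed from each other. IAA20 and IAA18 were 4.11-fold apart in their mutant-to-wild-type ratios, and GH3.3 and WES1 5.97-fold apart. A probe set counts as measured if the mean of its log2 signals is at or above the median of the non-control probe sets, which corresponds to a signal of 19.4. Of the 6 member probe sets, 4 were measured, 1 for each gene. One of these 4 was at least 2-fold higher in the mutant, against 8.12% of all 4124 measured probe sets, and 2 of the 4 were at least 2-fold lower, against 12.4%. These shares stand for 335 and 510 probe sets, and were 135 and 1092 with a scaling to the spike controls. Among 4 probe sets the members' counts carry little weight, so the account rests on each gene's own signals.

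**Figure D1:**
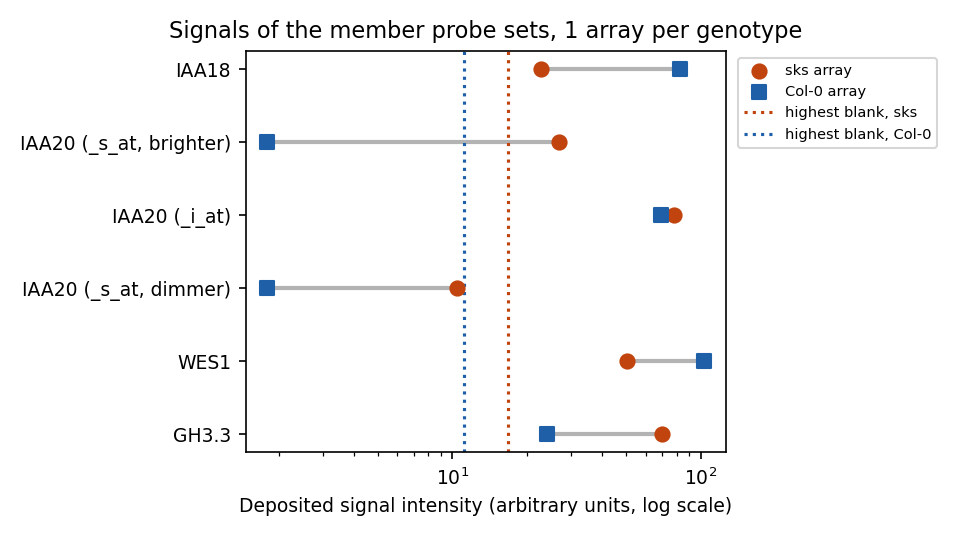
Deposited signal intensity (log scale) of the 6 member probe sets on the sks array (circles) and the Col-0 array (squares), joined by a grey line. Dotted lines mark the highest blank control signal of each array, 16.8 for sks and 11.1 for Col-0. IAA18 and WES1 lie to the right in Col-0 and GH3.3 in sks, while the 2 shared-probe sets of IAA20 have their Col-0 signals far inside the blank range.

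Signals are linear intensities in arbitrary units, already scaled alike on both arrays. To judge background, the 23 controls for mouse, yeast and Bacillus sequences served as blanks, and the brightest of them reached 16.8 in sks and 11.1 in Col-0. A signal at or under that limit of its array is said to lie in the blank range. Where the dimmer array lay there, the fold is written as at least the brighter signal divided by the limit of the dimmer array. Where both arrays lay there, no fold is given. Signal level was used to pick the brightest probe set of a gene and to set the measured limit and the signal ranges. Beyond that, levels of different probe sets were not compared with each other here, because each binds its target with its own strength.

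Among the repressors, IAA18 (AT1G51950) had a signal of 22.7 in sks and 82.5 in Col-0. Both signals were above the blank range, the mutant's by a small margin. The mutant signal was 3.63-fold lower, a log2 difference of -1.86. Of the 4124 measured probe sets, 93 (2.26%) had a more negative difference. IAA18 has a single probe set, without a suffix for shared probes, so no second reading of this transcript was at hand.

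IAA20 (AT2G46990) had 3 probe sets, and they did not give the same picture. The probe set with the _i_at suffix, which marks an incomplete set of unique probes, read 78.0 in sks and 68.9 in Col-0. That is a 1.13-fold difference, or 0.18 on the log2 scale, and 35.8% of measured probe sets had a more positive one. The other two carry the _s_at suffix, which marks probes that can match several similar transcripts. The brighter of them read 26.8 in sks and 1.8 in Col-0. Only its mutant signal was above the blank range, and the mutant was at least 2.41-fold higher. That combination, above the blank range in sks and inside it in Col-0, occurred in 1.58% of the 8247 non-control probe sets. The dimmer one read 10.4 in sks and 1.8 in Col-0, both in the blank range, and gives no fold. The dimmer one gives no direction either, since both of its signals are background. The mutant signal was the higher one on the other probe sets. With a scaling to the hybridisation spike controls, however, the _i_at difference turned to -0.26.

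How far the IAA20 probe sets disagreed depended on the limit set for the Col-0 signal, which lay in the blank range. As deposited, the log2 differences of the brighter _s_at and the _i_at probe set were 3.72 apart. Among all 224 pairs of probe sets that share a gene, 5 pairs, this one included, were at least that far apart, and the median gap was 0.51. With the Col-0 limit of 11.1 used for the bound above, the brighter _s_at probe set was at least 1.27 log2 units higher in sks and the gap was at least 1.09. Once signals under 16.8 were raised to 16.8 on both arrays, its log2 difference was 0.67 and the gap 0.49. Neither _s_at probe set was measured by the limit above, so the family contrast uses the _i_at probe set. Which reading follows the IAA20 transcript was not tested.

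Among the conjugating enzymes, WES1 (AT4G27260) had a signal of 50.5 in sks and 103.4 in Col-0. Both were well above the blank range. The mutant signal was 2.05-fold lower, a log2 difference of -1.03, and 491 measured probe sets (11.9%) had a more negative one. WES1 thus sat near the edge of the 2-fold limit and within a part of the distribution that many genes occupy. After centring both arrays on their medians its difference was -0.92, under the limit.

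GH3.3 (AT2G23170), a gene of the same family, had a signal of 70.0 in sks and 24.0 in Col-0. The mutant signal was 2.92-fold higher, a log2 difference of 1.54. A more positive difference was found in 113 measured probe sets (2.74%). Both signals were above the blank range. Each GH3 gene was read by 1 probe set without a shared-probe suffix.

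**Figure D2:**
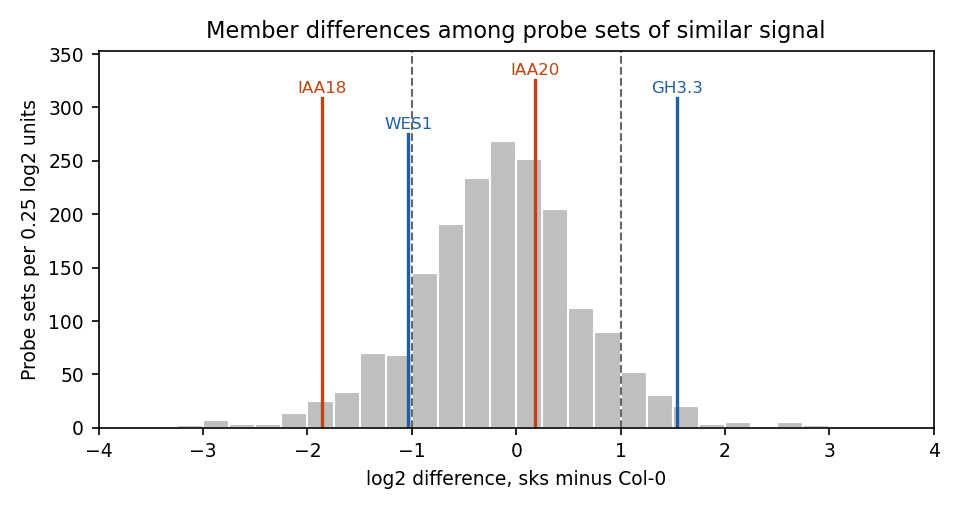
Number of probe sets per 0.25 units of log2 difference (sks minus Col-0) for the 1865 probe sets with a mean signal of 30 to 120, with the brightest probe set of each member marked by a line. Dashed lines mark 2-fold, and 6 probe sets beyond 4 log2 units in either direction lie outside the axis. IAA18 at -1.86 and GH3.3 at 1.54 lie in the outer parts of the distribution, WES1 at -1.03 on the lower dashed line and IAA20 at 0.18 near the middle.

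Dim probe sets can differ more between arrays than bright ones, so the members were also set among the 1865 probe sets with a mean signal of 30 to 120, a range that holds all 4 measured members. Their log2 differences centred on a median of -0.12, with an SD of 0.91. At least 2-fold higher were 7.18% of them and at least 2-fold lower 12.5%, close to the shares over all measured probe sets. Within this range 2.47% of probe sets had a more negative difference than IAA18, and 2.52% a more positive one than GH3.3. For WES1 the share with a more negative difference was 12.1%. IAA20 had 32.3% of them above it.

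The contrast within a family is the difference between the log2 differences of its 2 members. Multiplying all signals of 1 array by a constant shifts both members alike, so such a scaling cannot alter it. For the repressors, IAA20 (_i_at) minus IAA18 was 2.04, but it was 4.06 with the mean over the 3 IAA20 probe sets and 1.05 with all signals under 45.0 raised to 45.0. The 4.06 takes in both _s_at probe sets, whose Col-0 signals of 1.8 lay in the blank range, so its size rests on background readings. For the conjugating enzymes, GH3.3 minus WES1 was 2.58. In the GH3 pair the 2 genes lay on opposite sides of equality, whereas in the Aux/IAA pair IAA18 was lower and IAA20 was within 2-fold. These gaps were set beside those between any 2 of the 813 genes with a mean signal of 30 to 120. A gap of at least 2 log2 units occurred in 9.2% of the 330078 pairs, at least the Aux/IAA gap in 8.70% and at least the GH3 gap in 4.45%. The pairs reuse the same genes and are not independent, and no replicate shows how far these gaps vary between samples of 1 genotype.

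**Figure D3:**
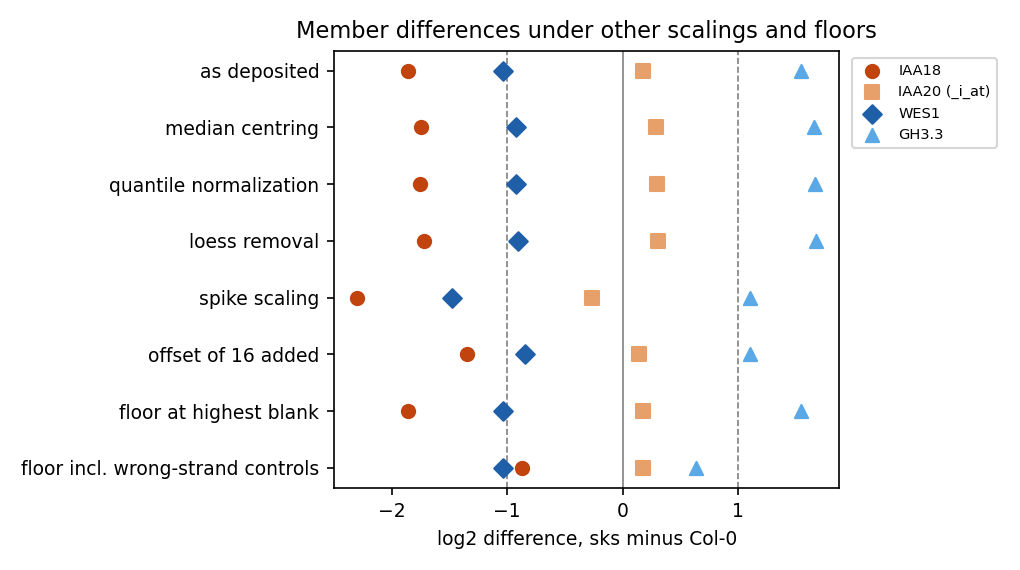
log2 difference (sks minus Col-0) of the brightest probe set of each member under the deposited scaling and 7 other settings, 1 setting per line. Solid and dashed vertical lines mark equality and 2-fold. IAA18 and WES1 stay left of equality and GH3.3 right of it in each setting, while IAA20 (_i_at) crosses to -0.26 with spike scaling. The offset and the floors cannot move a point across equality.

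The size of the IAA18 difference depended on which controls set the limit of background. The 9 control probe sets that carry the wrong strand of the spiked-in transcripts reached 45.0 on the sks array and 22.9 on the Col-0 array. Measured against those limits, the mutant signal of IAA18 fell inside the range and the gene was at least 1.83-fold lower. The Col-0 signal of GH3.3, at 24.0, stayed just above its array's limit, and its fold was the same 2.92. When 45.0, the limit of the sks array, was also imposed on the Col-0 array, the differences on the log2 scale were -0.87 for IAA18 and 0.64 for GH3.3, while that of WES1 was unaltered at -1.03. The GH3.3 minus WES1 contrast was then 1.67. This limit was added after the signals had been seen.

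Of the other 44 listed members of both families, 4 had a single-gene probe set, and none gave a signal above the blank range on either array. The matching share over all probe sets is not given here, so this count cannot be called unusual. The median signal of the non-control probe sets was itself low, 19 in sks and 20.3 in Col-0. IAA15, another Aux/IAA gene, read 10.0 in sks and 6.5 in Col-0. GH3.1 read 2.6 and 4.9, GH3.9, which is known for a role in primary root growth, 0.6 and 3.1, and AT1G23160 0.5 and 1.0, in the same order. No fold is given for these. The Aux/IAA list held 29 genes, of which 3 had a probe set and 2 were measured. The GH3 list held 19, of which 5 had a probe set and 2 were measured. The family contrast therefore rests on 2 genes in each family, and the level of the unnamed members is unknown.

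**Figure D4:**
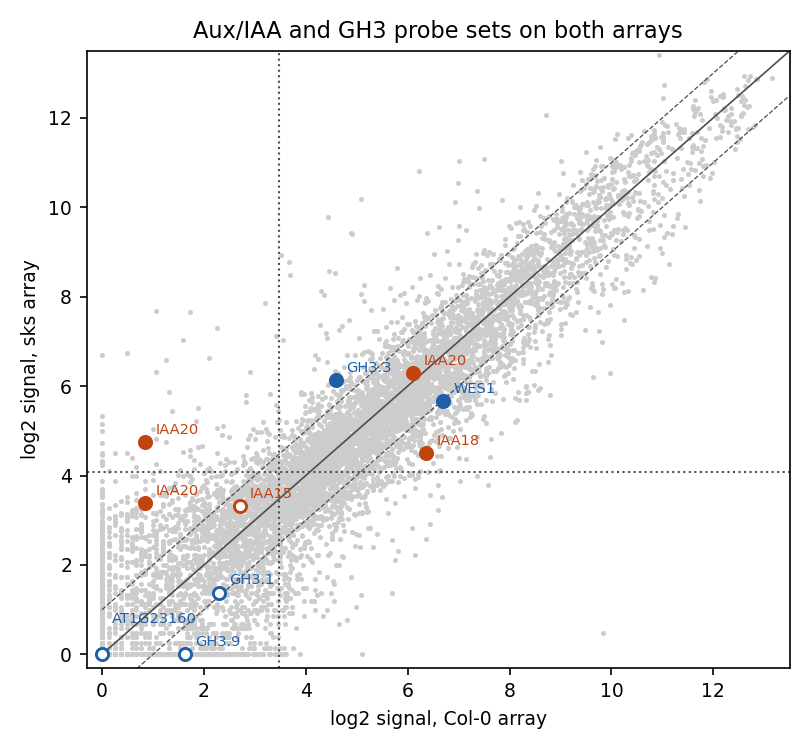
log2 signal on the Col-0 array (horizontal) against the sks array (vertical) for all non-control probe sets (grey), with Aux/IAA probe sets in orange and GH3 probe sets in blue; filled points are the 4 genes described and open points other family members. The solid line is equality, dashed lines 2-fold, and dotted lines the highest blank of each array. IAA15, GH3.1, GH3.9 and AT1G23160 lie below both dotted lines, and IAA18, WES1 and GH3.3 lie above both and on different sides of equality.

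Across the wider auxin pathway, 8 lists held 128 genes, of which 12 had a single-gene probe set and 6 were measured. The lists of response factors, of receptors and degradation machinery, and of transport had no named probe set, so the partners that the repressors act with could not be read. Of the 6 measured genes, 1 was at least 2-fold higher, 2 were at least 2-fold lower and 3 were within 2-fold. On the array as a whole, 8.12% of the 4124 measured probe sets passed the 2-fold limit upward and 12.4% downward. All 3 beyond 2-fold were IAA18, WES1 and GH3.3, which had been chosen with earlier results of these data known. The count therefore adds no gene beyond 2-fold outside both families. The median log2 difference of the 6 was -0.49, beside -0.09 over all 1622 measured genes, but 4 of the 6 are the genes described above, and only 2, HAT2 and LBD16, lie outside both families. HAT2, a homeodomain-leucine zipper gene induced by auxin, read 89.3 in sks and 171.5 in Col-0, which is 1.92-fold lower and just short of the limit. LBD16, which acts downstream of response factors in lateral root formation, read 21.7 and 22.2, nearly equal. Both LBD16 signals lay under the wrong-strand control limits of 45.0 in sks and 22.9 in Col-0. Whether these 2 genes followed a change in auxin response was not tested. Outside the measured genes, named after their values were seen, the auxin synthesis gene YUC2 read 10.6 in sks and 26.7 in Col-0, at least 1.59-fold lower. Against the wrong-strand limit of 45.0 in sks, its Col-0 signal was only 0.59 of the limit, so no lower level can then be stated. The auxin glucosyltransferase gene UGT84B1 read 11.7 and 6.1, both in the blank range.

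Several measures of the samples differed along with the genotype. The 3′ to 5′ ratio of the GAPDH control was 4.14 in sks and 2.94 in Col-0, and that of ubiquitin 4.65 and 4.84. All 9 spike controls were brighter on the sks array, by a median of 0.44 log2 units. Outlier cells numbered 21 on the sks array and 114 on the Col-0 array, and the mean scanner background was 61.92 and 57.92. Of 7 green tissue markers, 3 had a probe set, and all 3 were lower in sks by less than 2-fold. PSAN read 1848.3 in sks and 2710.7 in Col-0, and LHCB4.1 read 4306.8 and 5954.7. RCA, on a shared-probe set, read 4224.3 and 5970.1. ICL, the one seed reserve marker of 6 with a probe set, read 308.7 and 35.3. Of 5 markers of meristem and dividing cells, 2 had a probe set, and they went opposite ways, HIS4 reading 442.2 in sks and 270.6 in Col-0 on a shared-probe set and HTB2 278.2 and 308.5. None of the 7 root markers had one, so the share of root, where GH3.9 and LBD16 act, was not read. The part of these differences in the auxin gene signals was not tested.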

How the data were processed

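The authors deposited linear intensities for 8297 Affymetrix probe sets on each array, and per the labels total RNA was made into biotin-labelled cRNA. The sources used here do not give the summarising method. Both arrays had 2%-trimmed means of 100.2, which differed by under the 1% limit, so the deposited scaling was kept. Signals below 1 were set to 1 and log2 differences taken, mutant minus wild type, over 8247 non-control probe sets. No detection calls were used. Having 1 array per genotype limits the precision.

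Names came from the platform annotation, updated by Entrez ID through the RefSeq table of TAIR10.1 (3784 of 3794 single-gene probe sets matched). The other 4453 probe sets are unnamed here or have several genes. No coordinates or sequences are given, because the files name no build and no sequence table was used. List genes were matched by locus; 12 of 161 symbols were not in the RefSeq table. The brightest probe set stood for a gene.

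Members and lists were chosen with earlier results of these data known. Named are all member probe sets, the other Aux/IAA and GH3 genes with a probe set, and the measured genes of the other auxin lists. A planned search for genes of similar signal was left out, because it sets levels of different probe sets against each other. The salicylate and jasmonate list had no named probe set. Settings tried were median centring, quantile normalization, loess removal (span 0.3), spike scaling, an offset of 16, floors, filters, suffixes and fold limits. Python 3.11.15, pandas 2.3.3 and statsmodels 0.14.6 were used. The counting step was run on simulated data whose noise level was preset and not taken from these arrays. It therefore cannot show how often noise passes 2-fold here.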

Additional observations from a re-analysis of the deposited data

How the results depend on the processing

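IAA18 and GH3.3 kept their direction in all 7 other settings and 2-fold in 6, the exception being the floor that includes the wrong-strand controls (-0.87 and 0.64), which raises the dimmer signal by construction. WES1 kept its direction in all 7 but fell short of 2-fold with the offset (-0.84), loess removal (-0.90), median centring (-0.92) and quantile normalization (-0.93). IAA20 on its _i_at probe set was -0.26 with spike scaling. Its brighter _s_at probe set gave 1.27 with the offset, 0.67 with the blank floor and 0 with the higher floor, and the dimmer one 0.57, 0 and 0. Of the 8 settings for the contrasts, median centring and spike scaling cannot alter them. The blank floor left both as deposited, because the probe sets used read above 16.8 on both arrays. IAA20 minus IAA18 was 2.05 with quantile normalization and 2.03 with loess removal. It was 1.49 with the offset, 1.05 with the higher floor and 4.06 with the mean over probe sets. GH3.3 minus WES1 was 2.59 with quantile normalization, 2.58 with loess removal, 1.95 with the offset and 1.67 with the higher floor. Each GH3 member has a single probe set, so the mean over probe sets cannot alter it. The auxin median, as deposited over 6 genes of which 4 are the members, was negative in all 10 settings, from -0.94 on plain suffixes to -0.37. Spike scaling lowers every log2 difference by 0.44, so its -0.93 only carries that shift. The blank floor and the mean over probe sets left the median at -0.49. No median over all measured genes is given beside each setting. Under the 75th percentile filter fewer than 3 auxin genes remained, so it gave no median.

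Over all measured probe sets, 335 were 2-fold or more higher and 510 lower. The counts were 417 and 440 with median centring, 388 and 451 with quantile normalization, 391 and 449 with loess removal, 135 and 1092 with spike scaling, 222 and 334 with the offset, 1008 and 1258 without a filter, 194 and 259 with the 75th percentile filter, 751 and 1048 at 1.5-fold, and 105 and 185 at 3-fold. On plain suffixes they were 206 and 382, and with the higher floor 233 and 320. Signal over background limits the folds of IAA18, whose mutant signal of 22.7 is near the highest blank of 16.8, and of the IAA20 _s_at probe sets. There was no replicate to leave out. No paired analysis was possible because sks and Col-0 had 1 array each.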

Other observations

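Genes that lie beside the members in the RefSeq gene order, up to 5 on each side, were read where they had a probe set. There were 14 such genes, and 2 were measured. AT4G27280, 2 genes from WES1, read 349.9 in sks and 571.9 in Col-0, and AT2G47010, 3 genes from IAA20, read 30.7 and 21.1. Neither differed by 2-fold. IQD27, the gene next to IAA18, read 0.2 on both arrays, and both neighbours of WES1 were dim, AT4G27250 at 0.8 and 0.7 and AT4G27270 at 16.3 and 16.6. AT4G27270 exceeded the blank range in Col-0 alone.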
